A study of Mus musculus with 6 samples.

Results

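The genes described here encode the transforming growth factor beta (TGF-beta), bone morphogenetic protein (BMP) and activin pathway in mouse mammary tumours. Members were the genes of a 750-gene tumour panel whose names start with Tgfb, Bmp, Inhb, Acvr, Smad, Ltbp, Gdf or Lefty, together with Fst, Nog, Nodal, Bambi, Amh, Id1, Id2 and Id4. This gave 34 members of 750 genes, chosen by name and not by their values, though with earlier results of these data known. The tumours grew in female mice of a model labelled CLDX, an abbreviation that the labels do not expand, and no source used here gives the strain or age of the mice. All mice carried 4T1 cells, a mouse mammary carcinoma line, with 300000 cells implanted in the left mammary fat pad. From 2 weeks after implantation 3 tumours labelled Saline went without and 3 labelled TTFM received extracts of a Thai traditional formulary medicine, for which no source used here states composition or dose. The RNA came from whole tumour tissue, so fewer cells of a type and less RNA per cell cannot be told apart. The labels do not say that each tumour came from its own mouse, so p-values cover the spread among these samples alone, part of which may be technical.

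TGF-beta ligands are secreted in a latent complex with binding proteins of the LTBP family, and once released they bind the receptors Tgfbr2 and Tgfbr1, which phosphorylate Smad2 and Smad3. Activins, dimers of inhibin beta subunits such as Inhba, use their own receptors and the same SMAD proteins, while BMPs signal through Smad1, Smad5 and Smad9, and both branches share Smad4. Follistatin (Fst) binds and neutralises activin, noggin (Nog) does so for BMPs, and the ID genes are well known targets of BMP signalling. In mammary carcinoma TGF-beta is known to restrain the growth of epithelial cells early and to promote invasion and matrix production later.

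Totals ran from 333515 to 449460 counts per tumour. Levels are given as normalized counts, which are counts divided by the tumour's total and its trimmed mean of M values (TMM) factor and put on the scale of an average tumour. Cdh1, the epithelial cadherin gene, had 1032 to 1744 normalized counts per tumour. Saline replicate 2 stood apart from the other saline tumours. The 7 of 11 listed fibroblast and matrix markers on the panel (5 collagen genes, Pdgfra and Pdgfrb) summed to 39532 in it, against 7879 and 2939 in saline replicates 1 and 3 and 17933, 24964 and 16976 in TTFM replicates 1 to 3. On the first principal component of all tested genes, which held 56.8% of the variance, it lay at 9.92, beside TTFM replicates 1 and 2 at 7.46 and 8.91. The other saline tumours lay at -9.57 and -13.65 and TTFM replicate 3 at -3.08. Values without it are therefore given beside many results and are plotted for all tested members. It was singled out from these same values and lay beside TTFM tumours. Fits without it show how far a result rests on 1 tumour and are no test of TTFM.

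Across the pathway no gene passed the test for a difference between TTFM and saline tumours. Of the 34 members, 27 had a mean count of at least 10 and were tested, and 7 were left out. With edgeR's quasi-likelihood test and Benjamini-Hochberg adjustment over all 627 tested genes, 0 members had an adjusted p under 0.05, where 0% of the panel did, and DESeq2 and limma also called 0 members. At an unadjusted p under 0.05 there were 0 members of 27, against 6.06% of the panel. The log2 fold changes of TTFM over saline were positive in 12 members and negative in 15, with a median of -0.05 beside -0.00139 over all tested genes. The median standard error (SE) was 0.34 for the members, so at this number of tumours small differences were not detectable. On the log2 scale the pooled SD within groups was larger than the difference of the group means in 21 of the 27 tested members (77.8%), against 69.7% of all tested genes. The other members were Amh, Bmp4, Bmp5, Smad3, Smad4 and Id1. The highest tumour stood above the lowest by a median of 2.10-fold over the tested members, against 2.06-fold over all tested genes.

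**Figure D1:**
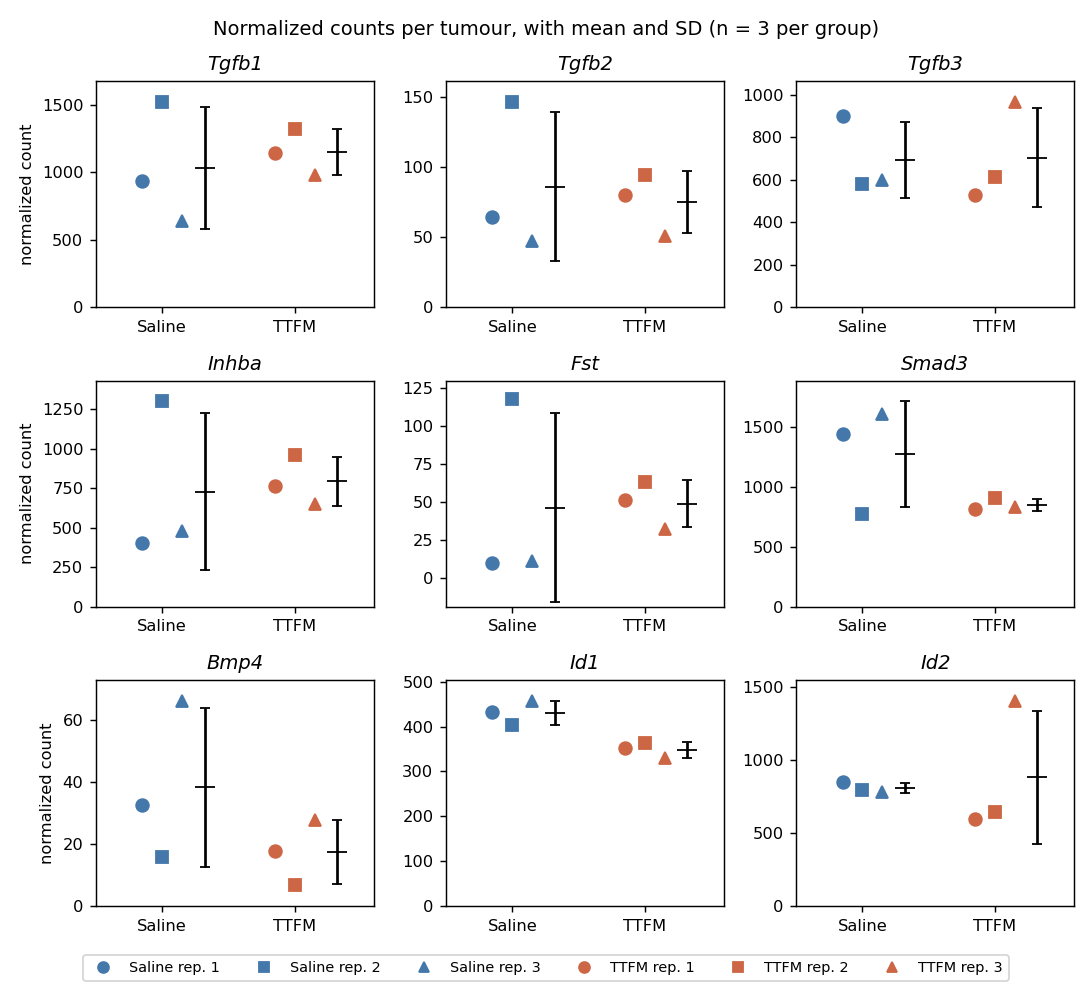
Normalized counts of 9 members (vertical axes, from 0 except for Fst, where the SD bar reaches below it) in the 3 saline and 3 TTFM tumours, with the group mean and SD in black. Saline replicate 2 (blue square) is the highest tumour for Tgfb1, Tgfb2, Inhba and Fst and the lowest for Smad3, while the Id1 values of the groups do not overlap.

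Among the TGF-beta ligands, Tgfb1 and Tgfb2 ran in another order over the tumours than Tgfb3. Tgfb1, the most widely expressed ligand, had 939.9, 1526 and 638 normalized counts in saline replicates 1 to 3 and 1146, 1321 and 979 in TTFM replicates 1 to 3. The saline tumours held both its highest and its lowest value, and the TTFM values lay between them. Its log2 fold change came to 0.15 ± 0.33 (SE, edgeR unadjusted p = 0.657), and it was 0.55 with an SE of 0.26 without saline replicate 2 (edgeR unadjusted p = 0.0661). The summed fibroblast and matrix markers ran in the same order over the tumours as Tgfb1, and their part in its values was not tested. Tgfb2 had 64.5, 147 and 47.2 normalized counts in saline and 80.5, 94.2 and 51.1 under TTFM. Saline replicate 2 again held the highest value and saline replicate 3 the lowest. Its log2 fold change came to -0.19, SE 0.46, and 0.44 with an SE of 0.36 without saline replicate 2. It was also positive, at 0.05, without TTFM replicate 3, so the sign changed on leaving out either of these tumours. Tgfb3 had 899, 580.0 and 600.2 normalized counts in saline and 528, 613 and 967 under TTFM. Here saline replicate 1 and TTFM replicate 3 were high and the other tumours lay close together, with a log2 fold change of 0.02 (SE 0.30).

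Ltbp1, which holds latent TGF-beta in the matrix, had 1224, 1096 and 1324 normalized counts in saline and 1067, 1125 and 1799 under TTFM. Only TTFM replicate 3 stood clear of the others, and the log2 fold change was 0.13 (SE 0.26), or -0.13 without that tumour. The TGF-beta receptor genes varied little. Tgfbr1, the type I receptor, had 723, 648 and 799 normalized counts in saline and 678, 813 and 828 under TTFM (log2 fold change 0.10, SE 0.19). Tgfbr2, the type II receptor, had 457, 423 and 396 in saline and 375, 452 and 407 under TTFM (log2 fold change -0.05, SE 0.18). Their highest tumours lay 1.28-fold and 1.22-fold above their lowest, ranks 602 and 609 of 627 tested genes by that measure, where rank 1 varies most.

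The activin subunit gene Inhba and the activin antagonist gene Fst ran in the same order over the 6 tumours. Inhba, which encodes the beta A subunit of activin A, had 404, 1299 and 476 normalized counts in saline and 766, 959 and 652 under TTFM. Fst had 9.63, 118 and 11.2 in saline and 51.1, 63.1 and 32.2 under TTFM. In both genes saline replicate 2 was highest, TTFM replicates 2, 1 and 3 followed in that order, and saline replicates 3 and 1 were lowest. The raw counts of Fst in saline replicates 1 and 3, the lowest of which was 10, were near those of Uty. This Y-linked gene, taken as a background level in these female tumours, had 4 to 12 counts. With all 6 tumours the log2 fold change was 0.13 for Inhba (SE 0.44) and 0.10 for Fst (SE 0.90), with edgeR adjusted p of 0.970 and 0.978. The size depended on the method: on the same tumours limma gave 0.31 for Inhba and 0.95 for Fst. With the replicate number as a block they stood at 0.31 and 0.85, and neither was called. Without saline replicate 2 the main method gave 0.85 for Inhba (SE 0.24, edgeR adjusted p = 0.126) and 2.22 for Fst (SE 0.43, edgeR adjusted p = 0.0469). Fst then passed the threshold, as did 2.20% of the 637 genes tested in that fit. Fst was called in no other fit that was run. Fst had the widest range of the tested members, 12.3-fold between the highest and the lowest tumour, rank 15 of 627. The summed fibroblast and matrix markers were also highest in saline replicate 2 and lowest in saline replicates 1 and 3, and their part in the values of Inhba and Fst was not tested. Inhbb, which encodes the beta B subunit, had 2 to 10 counts per tumour, within or below the range of Uty, and was left out of the test.

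**Figure D2:**
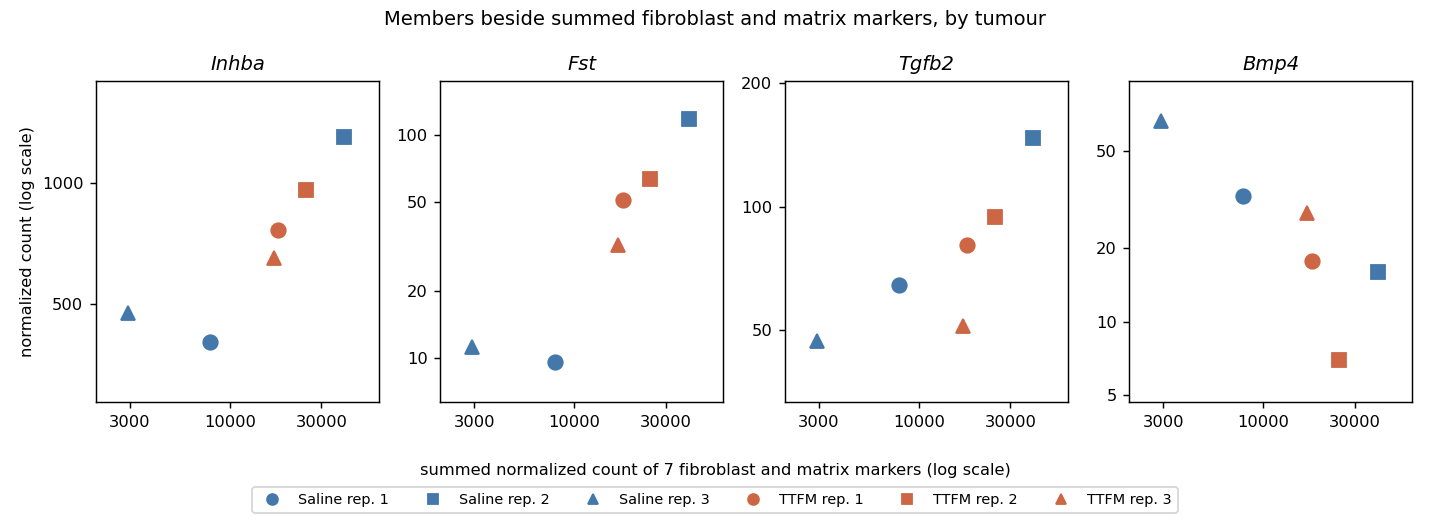
Normalized counts of Inhba, Fst, Tgfb2 and Bmp4 (vertical log axes) beside the summed normalized count of 7 fibroblast and matrix markers (horizontal log axes), with 1 point per tumour. Saline replicate 2 lies farthest right at 39532 and holds the highest value of Inhba, Fst and Tgfb2, while Bmp4 is highest in saline replicate 3, which lies farthest left at 2939.

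Of the other secreted antagonists, Lefty1 and Lefty2 encode inhibitors of Nodal. Lefty1 had 7.70 to 15.9 normalized counts over all tumours, with a log2 fold change of -0.04 (SE 0.36). Lefty2 had 10.6, 10.2 and 17.2 in saline and 5.89, 2.00 and 5.55 under TTFM. Its groups did not overlap, with every TTFM value below every saline value, but its mean count of 8.83 kept it out of the test and its counts were near those of Uty. Of the 123 panel genes left out of the test, 13 (10.6%) did not overlap between the groups, and Lefty2 was the 1 of 7 left-out members that did not. With no filter on low counts its log2 fold change came to -1.42 (SE 0.48, edgeR unadjusted p = 0.0176, adjusted p = 0.629). Nog had 1 to 4 counts per tumour, so no level could be given. Bambi, a pseudoreceptor that blocks TGF-beta family signalling, had 48.2, 44.4 and 37.8 normalized counts in saline and 34.4, 28.0 and 75.5 under TTFM. TTFM replicate 3 was its highest and the other TTFM tumours its lowest, so that the log2 fold change of 0.08 (SE 0.42) was -0.45 without TTFM replicate 3.

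The BMP ligand genes were at low to moderate counts and differed widely between tumours of a group. Bmp4, a ligand with roles in mammary and bone development, had 32.7, 15.9 and 66.1 normalized counts in saline and 17.7, 7.01 and 27.8 under TTFM. Saline replicates 1 and 3 were highest, while saline replicate 2 lay within the TTFM values. Its log2 fold change of -1.15 (SE 0.63, edgeR unadjusted p = 0.108, adjusted p = 0.909) was the most negative among the tested members. It was -1.51 without saline replicate 2, -0.48 without saline replicate 3 and -0.91 with values under 20 raised to 20. The lowest raw count of Bmp4 was 7, within the 4 to 12 counts of Uty. Bmp2 had 63.6, 23.9 and 47.2 in saline and 29.5, 26.0 and 69.9 under TTFM. Here TTFM replicate 3 was highest beside saline replicates 1 and 3, and the log2 fold change of -0.11 (SE 0.51) was -0.68 with TTFM replicate 3 left out, -0.41 with saline replicate 2 left out and 0.25 with saline replicate 1 left out. Bmp7 had 72.2, 72.8 and 132 in saline and 40.3, 92.2 and 109 under TTFM (log2 fold change -0.21, SE 0.43). Its highest value was in saline replicate 3 and its lowest in TTFM replicate 1, and the log2 fold change was 0.16 without saline replicate 3.

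The remaining ligands had low counts, near those of Uty. Bmp5 had 19.3, 10.2 and 15.5 normalized counts in saline and 9.82, 7.01 and 11.1 under TTFM, with a log2 fold change of -0.69 (SE 0.36, edgeR unadjusted p = 0.0949). Its groups overlapped at saline replicate 2. With values under 20 raised to 20 it had the same count in every tumour, so its log2 fold change of 0.04 came from the scaling alone. Amh, the anti-Müllerian hormone gene, stood at -0.43 (SE 0.38), Nodal at -0.11 (SE 0.32) and Gdf6, a BMP-like ligand gene of skeletal patterning, at 0.27 (SE 0.34), or 0.05 without saline replicate 2. The 5 tested members with a mean count under 20, which are Lefty1, Nodal, Amh, Bmp5 and Gdf6, had 6 to 20 counts per tumour. Bmp6 and Bmp8a had 4 to 17 and 4 to 13 counts and were not tested.

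Of the receptors of the activin and BMP branches, Acvr1b, an activin type I receptor, had 316, 251 and 293 normalized counts in saline and 195, 250.4 and 389 under TTFM. The TTFM tumours held both the highest and the lowest value (log2 fold change -0.05, SE 0.28). Acvr2a, an activin type II receptor, had 72.2 in saline replicate 1 and 51.1 to 54.4 in the other tumours (log2 fold change -0.15, SE 0.28). Bmpr1b, a BMP type I receptor, had 18.3, 67.1 and 10.3 in the saline tumours, 13.7 and 30.1 in TTFM replicates 1 and 2 and a value between these in TTFM replicate 3. Saline replicate 2 was far above all others, so that the log2 fold change was -0.56 (SE 0.69) with it and 0.58 (SE 0.46) without it. The lowest raw count of Bmpr1b was 12, equal to the highest count of Uty. Acvr1c had 5 to 10 counts per tumour and was not tested.

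The SMAD genes of the TGF-beta and activin branch stood on opposite sides of 0, and neither passed the test. Smad3 had 1437, 773 and 1607 normalized counts in saline and 812, 904 and 834 under TTFM. Saline replicates 1 and 3 lay above every TTFM tumour, and saline replicate 2 below every one of them. Its log2 fold change came to -0.58 (SE 0.29), with the smallest p among the members (edgeR unadjusted p = 0.0805, adjusted p = 0.849). Without saline replicate 2 it was -0.84 with an SE of 0.20 (edgeR adjusted p = 0.0700), which also missed the threshold. The sum of Csf3r, Il1b, Il1r2 and Mpo, the 4 of 9 listed granulocyte markers on the panel, was 2649, 1505 and 3230.2 in saline and 964, 825 and 592 under TTFM. It was likewise highest in saline replicates 1 and 3 but, unlike Smad3, higher in saline replicate 2 than in every TTFM tumour. Csf1r and Cd14, the 2 of 9 listed macrophage markers on the panel, summed to 1183, 656 and 852 in saline and 617, 603 and 712 under TTFM. That sum was also highest in saline replicates 1 and 3, with saline replicate 2 within the TTFM values. The part of either sum in the values of Smad3 was not tested. Smad2 had 78.0, 108 and 97.9 in saline and 161, 144 and 76.6 under TTFM. TTFM replicates 1 and 2 were highest and TTFM replicate 3 lowest, with a log2 fold change of 0.43 (SE 0.32), which was 0.71 without TTFM replicate 3 (edgeR unadjusted p = 0.0229, adjusted p = 0.398).

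Smad4, the partner of both branches, had 213, 194 and 196 normalized counts in saline and 275, 232 and 201 under TTFM. TTFM replicates 1 and 2 lay above the saline tumours and TTFM replicate 3 among them (log2 fold change 0.23, SE 0.20). Smad1, of the BMP branch, had 189.7, 242 and 372 in saline and 279.8, 289 and 317 under TTFM. The saline tumours held both ends of its range, with a log2 fold change of 0.14 (SE 0.27). Smad9, of the same branch, had 3 to 21 counts per tumour, highest in saline replicate 3, and was not tested.

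Id1 was the 1 tested member whose groups did not overlap, where 8.29% of the 627 tested genes did not: 4.31% lower in TTFM tumours, as Id1 was, and 3.99% higher. Id1, which encodes an inhibitor of basic helix-loop-helix factors, had 433, 403 and 456 normalized counts in saline and 353, 363 and 329 under TTFM. Every TTFM value lay below every saline value, with means of 431 ± 26.8 (SD, n = 3) and 348 ± 17.5 (SD, n = 3). Its log2 fold change of -0.31 (SE 0.18) did not pass edgeR's test (unadjusted p = 0.123, adjusted p = 0.909), and it ran from -0.35 to -0.25 with any 1 tumour left out. The granulocyte marker sum given above also did not overlap between the groups, and its part in the values of Id1 was not tested. Id2, a member of the same family, did not follow Id1. It had 849, 798 and 781 in saline and 599, 642 and 1406 under TTFM. TTFM replicates 1 and 2 lay below all saline tumours and TTFM replicate 3 above them, so that the log2 fold change of 0.12 (SE 0.34) was -0.36 without TTFM replicate 3. Id4 had 26.0, 17.1 and 31.8 in saline and 24.5, 15.0 and 26.6 under TTFM (log2 fold change -0.19, SE 0.37). In both groups replicate 2 was the lowest for Id4.

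**Figure D3:**
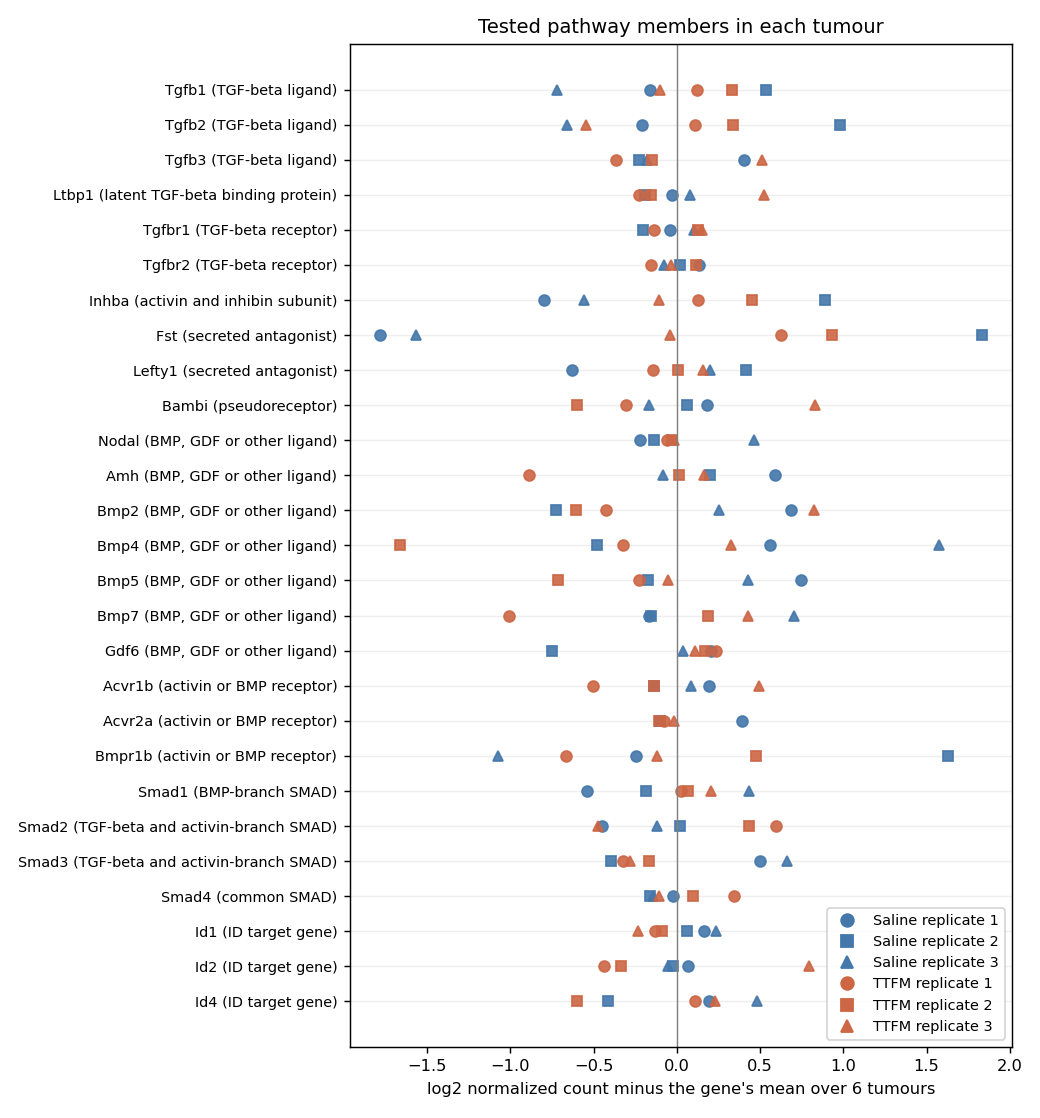
The 27 tested members, ordered by role, with the log2 normalized count in each tumour minus the gene's mean over the 6 tumours on the horizontal axis (blue saline, orange TTFM, 1 symbol per replicate). Fst, Bmp4 and Bmpr1b spread widest, and saline replicate 2 lies at the right end for Tgfb1, Tgfb2, Inhba, Fst, Lefty1 and Bmpr1b.

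The spread between tumours differed widely from member to member. Highest over lowest tumour was at least 4-fold in 3 of the 27 tested members, Fst, Bmp4 (9.43-fold) and Bmpr1b (6.51-fold), against 12.0% of the panel. Their lowest raw counts of 10, 7 and 12 lay within the 4 to 12 counts of Uty, so the lower ends of these ranges were near background. Saline replicate 2 lay at least 2-fold above both other saline tumours in 4 members, Tgfb2, Inhba, Fst and Bmpr1b, and 8.13% of the panel did so. It lay at least 2-fold below both in 1 member, Bmp4, and 6.06% of the panel did so. These counts compare 1 tumour with the others and carry no test. Relative to the mean of the other saline tumours it held 11.4-fold of Fst, 4.69-fold of Bmpr1b, 2.95-fold of Inhba, 2.63-fold of Tgfb2 and 1.93-fold of Tgfb1. The other saline tumours held on average 3.10-fold of its Bmp4, 2.32-fold of its Bmp2 and 1.97-fold of its Smad3. The median SD of the log2 levels over the tested members was 0.46 in saline and 0.41 in TTFM tumours, against 0.36 and 0.33 over all tested genes.

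Without saline replicate 2, 28 members were tested and 5 had an unadjusted p under 0.05, where 18.8% of the panel did. Of these 2 were higher in TTFM tumours, Fst and Inhba, against 9.11% of the panel, and 3 were lower, Smad3, Bmp4 and Bmp5, against 9.73%. Bmp4 stood at -1.51 (edgeR adjusted p = 0.198) and Bmp5 at -0.89 (edgeR adjusted p = 0.239), so that Fst alone of the members passed. Since saline replicate 2 was singled out by its values, these counts describe how far the results rest on it. The signs of Tgfb2, Bmpr1b, Lefty1 and Tgfb3 differed between the fits with and without this tumour.

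**Figure D4:**
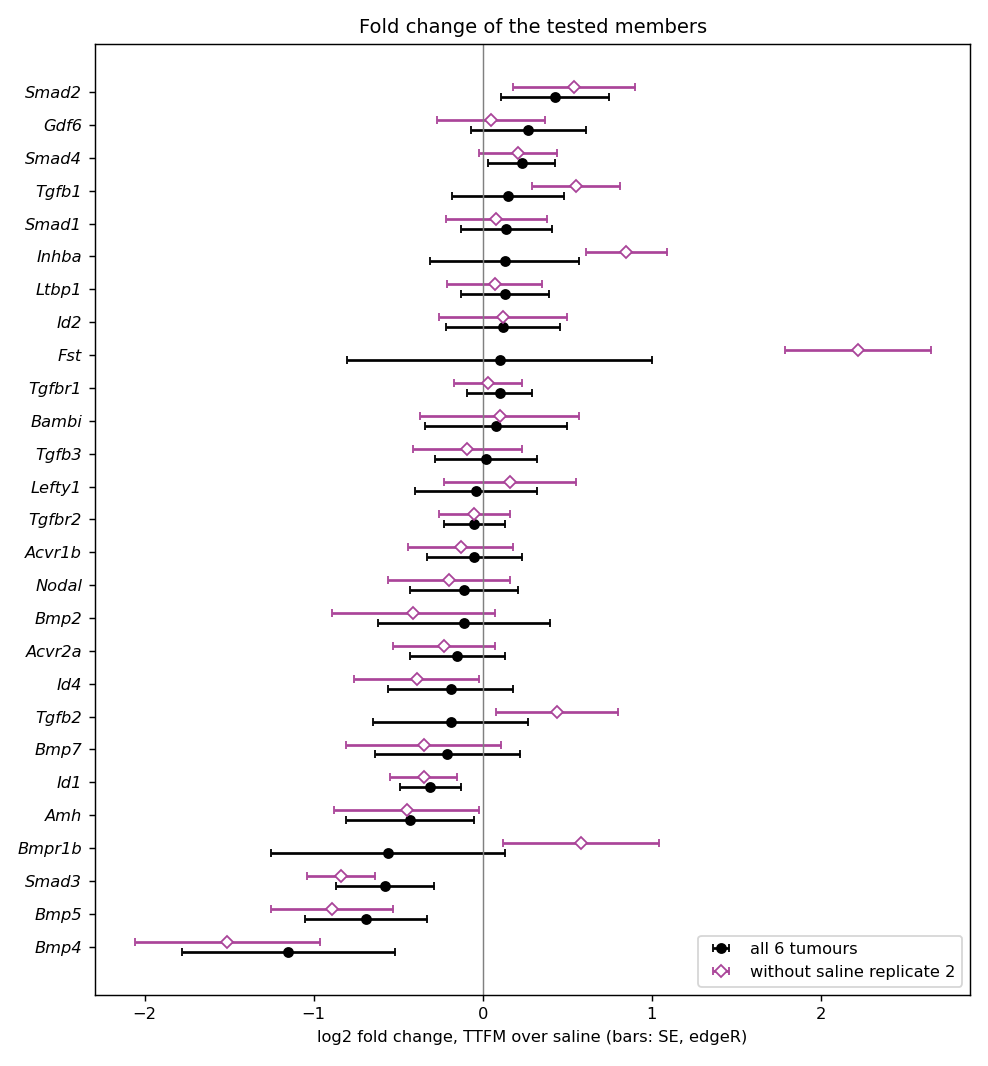
Log2 fold change of TTFM over saline with its SE for the 27 tested members, with all 6 tumours (black circles) and without saline replicate 2 (open diamonds). Fst moves from 0.10 to 2.22 and Inhba from 0.13 to 0.85, while Id1 stays at -0.31 and -0.35.

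The upstream sequences of 5 members are shown because they stood at opposite ends over the tumours or are a target of the pathway: Inhba and Tgfb2 were highest in saline replicate 2, Bmp4 and Smad3 were highest in saline replicate 3, and Id2 encodes an ID protein. They are the 250 bases before the annotated start from RefSeq (build GRCm38.p6), written 5′ to 3′ on the strand of the gene. Of the 34 members 21 had an entry in the promoter table, and Fst and Id1 did not. Capitals mark the SMAD box CAGAC, the GC-rich SMAD site GGCGCC and the TATA box TATAAA, searched on both strands, none of which overlapped another. The cAMP response element TGACGTCA and the AP-1 site TGANTCA were searched too and had no match in these 5 windows. The positions are chr13:16011601-16011850, plus strand, for Inhba; chr1:186705990-186706239, minus strand, for Tgfb2; chr14:46390670-46390919, minus strand, for Bmp4; chr9:63757995-63758244, minus strand, for Smad3. Id2 lies at chr12:25096093-25096342, minus strand.
Inhba: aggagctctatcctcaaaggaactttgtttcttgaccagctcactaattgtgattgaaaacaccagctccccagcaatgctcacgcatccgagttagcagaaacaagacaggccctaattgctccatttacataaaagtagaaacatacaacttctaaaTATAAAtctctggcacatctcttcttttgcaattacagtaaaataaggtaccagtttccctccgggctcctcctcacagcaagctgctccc
Tgfb2: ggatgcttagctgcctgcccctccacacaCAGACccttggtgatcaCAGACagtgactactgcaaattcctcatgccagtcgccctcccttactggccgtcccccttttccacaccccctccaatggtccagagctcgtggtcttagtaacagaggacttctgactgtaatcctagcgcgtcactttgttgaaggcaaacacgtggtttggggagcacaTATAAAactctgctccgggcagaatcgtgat
Bmp4: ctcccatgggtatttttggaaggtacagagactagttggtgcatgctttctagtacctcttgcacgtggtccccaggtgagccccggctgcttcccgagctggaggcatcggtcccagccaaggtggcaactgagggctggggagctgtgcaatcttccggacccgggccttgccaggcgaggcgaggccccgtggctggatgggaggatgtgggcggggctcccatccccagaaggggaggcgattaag
Smad3: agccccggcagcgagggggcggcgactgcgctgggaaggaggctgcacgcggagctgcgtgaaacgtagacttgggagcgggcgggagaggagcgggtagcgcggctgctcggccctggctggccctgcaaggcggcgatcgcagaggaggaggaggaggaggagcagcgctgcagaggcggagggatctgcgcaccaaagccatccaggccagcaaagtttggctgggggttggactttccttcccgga
Id2: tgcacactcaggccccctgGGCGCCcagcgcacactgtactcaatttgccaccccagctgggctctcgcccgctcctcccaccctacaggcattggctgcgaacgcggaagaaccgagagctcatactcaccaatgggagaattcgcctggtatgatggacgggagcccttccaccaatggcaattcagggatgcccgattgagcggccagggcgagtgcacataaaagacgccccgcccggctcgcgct

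The Inhba window held 1 TATA box, starting 91 bases before the gene's start, and no SMAD box. The Tgfb2 window held 2 SMAD boxes, starting 221 and 204 bases before the start, and 1 TATA box at 31 bases. The Id2 window held 1 GC-rich SMAD site, starting 231 bases before the start. The windows of Bmp4 and Smad3 held no match to the 5 motifs. GC content was 43.2% for Inhba, 53.6% for Tgfb2, 63.2% for Bmp4, 69.2% for Smad3 and 62.8% for Id2, with no value over all windows to set beside these. Of 32851 such windows in the table, 42.2% held the SMAD box, 9.59% the GC-rich SMAD site, 12.4% the TATA box, 1.55% the cAMP response element and 6.75% the AP-1 site. A match describes the letters of the window and is not a measured site.

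Partner and target genes of the pathway outside the members were taken from 7 lists of 120 genes, of which 42 were on the panel and 39 were tested. With all 6 tumours none passed edgeR's test over all genes, and 24 had positive and 15 negative log2 fold changes with a median of 0.11. At an unadjusted p under 0.05 there were 5, 2 higher and 3 lower in TTFM tumours, beside 1.59% and 4.47% of the panel. Pias1, a SUMO ligase that acts on SMAD proteins, stood at 1.29 (SE 0.30) and Skp1a, a ubiquitin ligase subunit, at 0.61 (SE 0.25). Pias1 was at low counts, 16 to 60 per tumour, with 27.9, 18.2 and 22.3 normalized counts in saline and 58.9, 56.1 and 53.3 under TTFM. Its mean count of 39.2 kept it out of the fit at a mean count of at least 50. Thbs1, whose product can release TGF-beta from its latent complex, stood at -0.99 (SE 0.28) and Fos, an AP-1 subunit that cooperates with SMADs, at -1.39 (SE 0.47). Without saline replicate 2 Fos stood at -1.74 (edgeR adjusted p = 0.0469) and was the 1 partner gene past the threshold. Cdkn1a, a cell cycle inhibitor that TGF-beta can induce, had 439, 445 and 417 normalized counts in saline and 334, 336 and 246 under TTFM, with a log2 fold change of -0.51 (SE 0.20, edgeR adjusted p = 0.719). The 12 tested target genes of TGF-beta included the 5 collagen genes of the fibroblast and matrix sum, so the list and that sum share genes. Of these 12, 8 were positive and 4 negative with a median of 0.15, and Cdkn1a was the 1 at an unadjusted p under 0.05. The most abundant of them, Fn1 (fibronectin), stood at -0.08 (SE 0.34) and Tnc (tenascin C) at 0.18 (SE 0.81). Tnc had 5634, 24093 and 1675 normalized counts in saline and 11861, 14005 and 9714 under TTFM, and stood at 1.70 without saline replicate 2. Like Tgfb1, Tnc was highest in saline replicate 2 and lowest in saline replicate 3, with the TTFM tumours between them. Mmp9, a protease that can release TGF-beta, stood at 0.59 (SE 0.91), and at 2.14 without saline replicate 2.

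The lists of SMAD partners, SMAD ubiquitin and SUMO factors, the branch that does not use SMADs, and latency and activation genes had medians of 0.07, 0.41, -0.02 and 0.19 over 9, 4, 6 and 7 tested genes. Runx1 stood at 0.07 (SE 0.18), Tfdp1 at -0.09 (SE 0.21), Cul1 at -0.12 (SE 0.21), Ppp2r1a, a subunit of protein phosphatase 2A, at 0.20 (SE 0.22) and Ppp2cb, a catalytic subunit, at -0.42 (SE 0.23), or -0.57 (edgeR unadjusted p = 0.0267) without saline replicate 2. Hes1, the 1 tested gene of the list of BMP targets, stood at 0.23 (SE 0.30), or 0.07 without saline replicate 2. Of the list of further antagonists 1 gene was on the panel, and it was not tested.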

How the data were processed

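Expression of 750 genes was measured in 6 tumours, 3 saline and 3 TTFM. The authors deposited 1 table of whole-number counts per gene, read as not normalized because the totals differ between samples. No label names the platform, the counting steps or a normalization, and no source used here gives them. The lowest count was 1 in every sample, so zeros may have been raised to 1.

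Genes whose mean count reached 10 were tested with edgeR 4.0.16 in R 4.3.3 (TMM scaling, estimateDisp, glmQLFit, glmQLFTest, treatment as the only term, Benjamini-Hochberg over 627 genes, threshold 0.05). SE is the log2 fold change over the square root of the F statistic. The code was tested on simulated data. DESeq2 1.42.0, limma 3.58.1 with trend, other scalings and filters, the replicate number as a block and leaving out each tumour were alternatives. All 34 members are named. Partner genes were named at an unadjusted p under 0.05 or as the 2 most abundant of a list. Members, lists and motifs were chosen with earlier results of these data known. No samples matched within sampling noise (lowest chi-square per degree of freedom 9.02). All 34 symbols were in the RefSeq gene table.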

Additional observations from a re-analysis of the deposited data

How the results depend on the processing

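The count of members past the threshold was 0 with every scaling, filter and test run, with values under 20 raised to 20 and with the replicate block, and 0 to 1 with 1 tumour left out, the 1 being Fst without saline replicate 2. The panel count was 0 with edgeR and limma, 1 with DESeq2 (not a member), 0 to 14 on leaving out a tumour, and that of partner and target genes 0 to 1 with 1 tumour left out (Fos), the 14 and this 1 both without saline replicate 2. Members at an unadjusted p under 0.05 numbered 0 to 5 with 1 tumour left out, 1 (Lefty2) with no filter on low counts and 1 (Bmp4, log2 fold change -1.10, unadjusted p = 0.0126, adjusted p = 0.592) with the replicate block. The members' median was lowest, at -0.16, without TTFM replicate 3 and highest, at 0.09, without TTFM replicate 1. Of the 27 tested members 7 kept their sign in every setting in which they were tested: Bmp4, Gdf6, Id1, Smad2, Smad3, Smad4 and Tgfbr1, of which Bmp4 and Gdf6 were not tested at a mean count of at least 50. With 1 tumour left out, the log2 fold changes of genes whose sign or call changed ran, gene by gene, as follows: Tgfb1 -0.09 to 0.55, Tgfb2 -0.47 to 0.44, Tgfb3 -0.26 to 0.28, Ltbp1 -0.13 to 0.27, Tgfbr2 -0.13 to 0.04, Inhba -0.14 to 0.85, Fst -0.36 to 2.22, Lefty1 -0.26 to 0.16, Bambi -0.45 to 0.33, Nodal -0.21 to 0.15, Bmp2 -0.68 to 0.25, Bmp7 -0.47 to 0.16, Acvr1b -0.34 to 0.16, Acvr2a -0.23 to 0.06, Bmpr1b -0.98 to 0.58, Smad1 -0.02 to 0.47, Id2 -0.36 to 0.34, Id4 -0.39 to 0.04, Cul1 -0.25 to 0.03, Fn1 -0.22 to 0.11, Fos -1.74 to -0.98, Tfdp1 -0.23 to 0.03 and Tnc -0.31 to 1.70. Scaled to the total or with values under 20 raised to 20, Tgfb3 stood at -0.01. With that raised floor Fst stood at -0.07. Lefty1, Nodal, Amh, Bmp5 and Gdf6 then had the same count of 20 in every tumour. Their shared 0.04 came from the scaling alone, so no sign can be read from it. Amh and Bmp5 were negative in every other setting in which they were tested. With no filter Tgfbr2 stood at 0.01 and Lefty1 and Acvr1b at 0.02. With limma Lefty1 stood at 0.01 and Bambi at -0.05, and with the replicate block Bambi at -0.03. Some genes kept their sign but moved in size. Fst went from 0.10 in the main fit to 0.95 with limma and 0.85 with the replicate block. Tnc went from 0.18 to 0.94 and 0.96, and Mmp9 from 0.59 to 0.99 and 1.00. The cause of the other changes was not tested. Same-numbered tumours deviated from their group means with correlations of -0.228, 0.435 and 0.265 across genes, and different-numbered tumours with -0.424 to 0.395. Deviations from a mean of 3 tumours depend on one another, so these values cannot decide whether the numbers mark pairs. The main fit did not take them as pairs. Scaling to housekeeping genes was not run, since 2 listed genes were on the panel. With 3 tumours per group and a biological coefficient of variation of 33.4%, small changes and genes near the level of Uty could not be resolved.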
